A study of Mus musculus with 4 samples.

Results

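The genes described here are p53 and its targets, the BCL2 family, and the caspases with their regulators, 36 genes chosen by name. For each gene the probe set with the highest mean signal was used among those that the array's annotation gives to that gene alone. Of the 36, 32 had such a probe set, and all 32 passed the filter on dim genes, out of 12821 genes tested and 18193 with a probe set. Trp53, Bax, Bcl2a1a and Bcl2a1d had none and were not analysed here, so p53 itself and the effector Bax enter only through their targets, inhibitors and relatives.

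RNA came from mouse CD4 T cells of the 2D2 Tg background, a transgenic line whose T cell receptor recognises a myelin peptide, and was hybridised to Affymetrix Mouse Genome 430 2.0 arrays. The wildtype group, 2 arrays, carried the transgene with an intact miR-146a gene, and the miR-146a-deficient group, also 2 arrays, carried the same transgene without a working miR-146a. In both groups naive cells had been sorted and then activated for 3 days with plate-bound anti-CD3 at 5 µg/ml and soluble anti-CD28 at 1 µg/ml, so no unstimulated cells serve as a reference. The labels call the replicates biological without saying whether they were separate mice, so p-values measure the spread between these samples, and the sources used here give neither the age of the mice nor how the deletion was made.

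The p53 protein is a transcription factor that is stabilised by DNA damage and other stress, is held down by MDM2 and MDM4, and switches on genes for cell cycle arrest, repair and death. In the mitochondrial death pathway BH3-only proteins are sensors that release BAX and BAK from the anti-apoptotic members of the BCL2 family, after which APAF1 activates caspase-9. Caspase-8 starts the death receptor pathway and is restrained by CFLAR. In activated T cells this balance sets how far a clone expands and how sharply it contracts, with BIM (Bcl2l11) and BCL2 as a well known pair.

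The molecule removed in the deficient cells is shown first, beside a relative from another gene that shares its seed, the stretch that pairs with targets. Both mature sequences are from RefSeq (GRCm38.p6), with the seed, bases 2 to 8, in capitals, and they differ at 2 of 22 positions, outside the seed. Mir146 lies at chr11:43374435-43374456 and Mir146b at chr19:46342790-46342811, on the minus and the plus strand respectively. Neither microRNA was measured here.
miR-146a-5p: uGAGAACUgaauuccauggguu
miR-146b-5p: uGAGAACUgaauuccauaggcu

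What marks a direct p53 target is its response element, a pair of half-sites. RefSeq promoter windows, from 250 bases before to 50 after an annotated start, were searched on both strands for the p53 half-site consensus. Of 44 windows of 28 members, 9 windows of 8 genes held a half-site (20.5%), where 8.36% of all 32851 windows did. Perp, Pmaip1, Trp53inp1 and Bik had no window among those searched. The genes were Aen, whose 2 overlapping windows hold the same half-site and were both counted, and Bmf, Cdkn1a, Ei24, Gtse1, Mdm2, Polk and Sesn1. A pair of half-sites at most 13 bases apart stood in 24 windows in all (0.0731%), of which 1 belonged to a member, Cdkn1a. Windows with a half-site are printed for Cdkn1a, Mdm2 and Sesn1, p53 targets whose signal on every array is given below, with each half-site in capitals. The same holds for Gtse1, whose window is not printed. Cdkn1a and Sesn1 each have another window, without a half-site. They lie at chr17:29090729-29091028 (plus strand), chr10:117710709-117711008 (minus strand) and chr10:41887189-41887488 (plus strand) of GRCm38.p6. A match to the consensus is a description of the letters and not evidence of binding.
Cdkn1a: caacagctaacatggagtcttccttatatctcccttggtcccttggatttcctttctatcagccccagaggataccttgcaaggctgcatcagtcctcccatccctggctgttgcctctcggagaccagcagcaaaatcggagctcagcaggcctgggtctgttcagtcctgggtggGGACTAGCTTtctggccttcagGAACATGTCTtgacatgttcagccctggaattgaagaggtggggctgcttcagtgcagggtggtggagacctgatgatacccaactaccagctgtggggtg
Mdm2: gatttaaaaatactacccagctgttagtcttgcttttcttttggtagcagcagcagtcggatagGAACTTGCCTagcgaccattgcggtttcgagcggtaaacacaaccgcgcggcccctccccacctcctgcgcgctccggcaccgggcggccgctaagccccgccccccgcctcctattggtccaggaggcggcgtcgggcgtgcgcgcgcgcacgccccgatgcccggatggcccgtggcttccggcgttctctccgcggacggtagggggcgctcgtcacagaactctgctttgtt
Sesn1: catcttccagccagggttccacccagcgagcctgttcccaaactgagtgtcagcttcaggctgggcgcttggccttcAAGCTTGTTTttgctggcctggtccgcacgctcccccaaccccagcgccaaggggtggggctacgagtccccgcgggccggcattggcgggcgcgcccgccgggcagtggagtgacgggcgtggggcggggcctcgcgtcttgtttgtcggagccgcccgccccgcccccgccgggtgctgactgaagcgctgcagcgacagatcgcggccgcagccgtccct

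The comparison asks whether the p53 and death programme differs when activated T cells lack miR-146a. At a limma adjusted p of 0.05 no member was called, where 0.179% of all tested genes were. Perp and Bcl2l11 had an unadjusted p below 0.05, both higher in the deficient arrays, which is 6.25% of the 32 members beside 5.26% of all tested genes (2.85% higher and 2.42% lower). The smallest adjusted p of any member was 0.521. The other 30 members had log2 differences, deficient minus wildtype, between -0.29 and 0.19. In 8 members (25%) all arrays of one genotype lay above those of the other, beside 33.6% of all tested genes. Out of all 32 members, 5 were higher without overlap in the deficient arrays, beside 15.9% of all tested genes. Lower without overlap were 3 of the 32, beside 17.7%.

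These data also bound the differences. On the probe set used for each gene, the 95% interval of the log2 difference lay inside -1 to 1, that is within 2-fold, for all 32 members. The same held for 10204 of the 12821 tested genes. The interval lay inside -0.5 to 0.5 for 23 members, beside 6271 of the tested genes. The half-width of the interval had a median of 0.27 and ran from 0.20 for Mcl1 to 0.59 for Casp9. The members were also brighter, with a median signal of 1268 against 488 for all tested genes. Dimmer probe sets of the same members were not all bounded in this way. For example, an Mdm4 probe set gave -0.82 ± 0.38 (SE). A p above the threshold does not show that the genotypes are equal. The intervals are not adjusted for the number of genes tested, so differences larger than these half-widths could also go uncalled with 2 arrays a genotype. Those of Perp and Bcl2l11 did, though their intervals leave out 0.

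**Figure D1:**
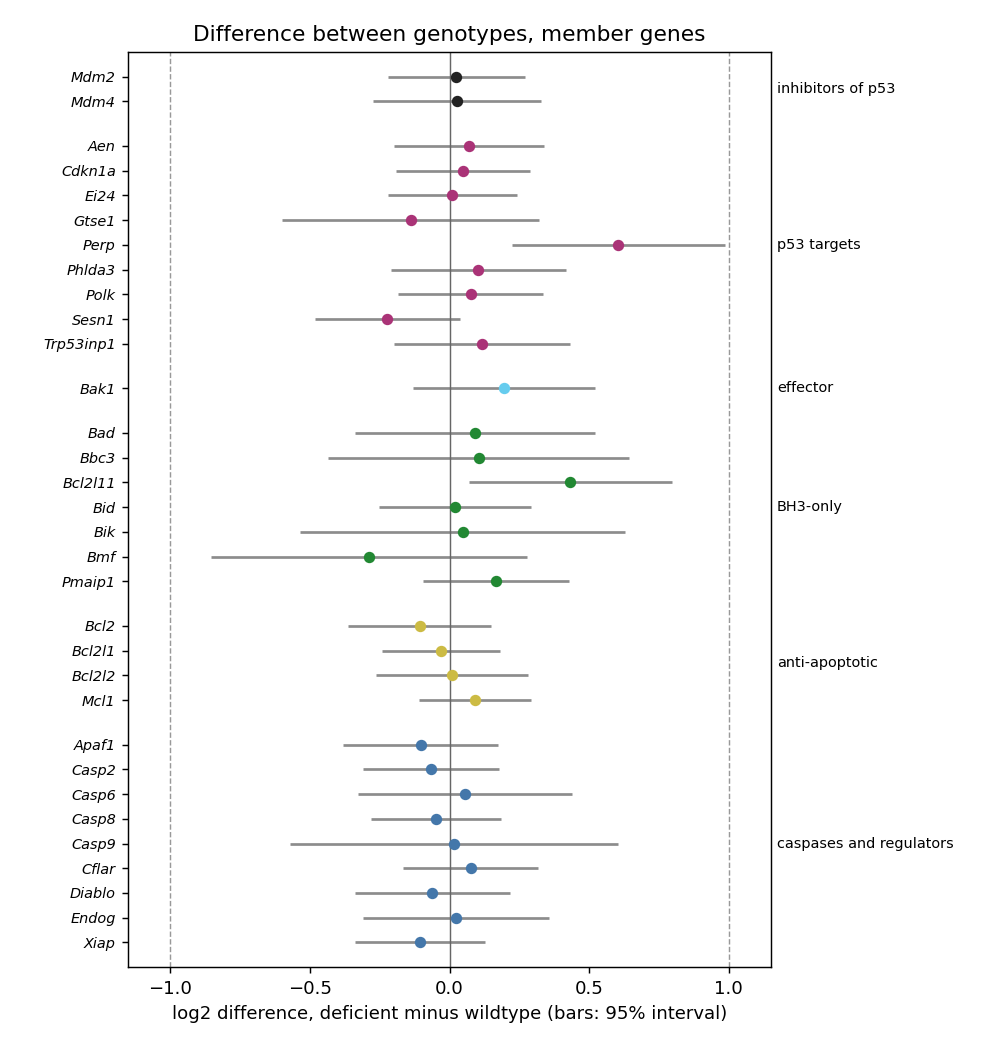
Log2 difference between miR-146a-deficient and wildtype arrays (x axis, log2 units) for the 32 members, grouped by role; points are limma estimates from 2 arrays a genotype, bars the 95% interval, and dashed lines mark -1 and 1. All bars lie between the dashed lines, and only those of Perp and Bcl2l11 leave out 0.

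Neither inhibitor of p53 measured here passed the test. Mdm2, which encodes the ubiquitin ligase that degrades p53 and is itself a p53 target, had signals of 1614 and 1820 in the wildtype arrays and of 1730 and 1755 in the deficient arrays. The deficient pair lay between the wildtype arrays. Its log2 difference was 0.024 ± 0.108 (SE), with an interval from -0.22 to 0.27. Mdm4, an inhibitor that covers the activation domain of p53, had signals of 1348 and 1316 in the wildtype and of 1206 and 1528 in the deficient arrays. Here the deficient arrays lay on both sides of the wildtype pair, and the log2 difference was 0.028 ± 0.132. The other 3 Mdm4 probe sets past the filter gave -0.0048, -0.12 and -0.82, the last from signals of 71.3 and 53.2 against 20.3 and 38.8, and the mean of all probe sets gave -0.23.

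Among the 9 p53 targets outside the BCL2 family, none passed the test, 7 estimates lay above 0 and 2 below, and the median log2 difference was 0.068. Cdkn1a encodes p21, the inhibitor of cyclin-dependent kinases through which p53 stops the cell cycle. Its signal was 9255 and 11099 on wildtype arrays and 10227 and 10729 on deficient arrays. The ranges overlapped, and its log2 difference was 0.048 ± 0.105, with an interval from -0.19 to 0.29. The other Cdkn1a probe set gave 0.080, so both probe sets of this target lay close to 0.

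Perp had the largest estimate of the 32 members. It encodes a membrane protein of cell junctions that is also an effector of p53-dependent death. Its signal was 881 and 689 on wildtype arrays and 1041 and 1364 on deficient arrays. The groups did not overlap, yet the arrays within each genotype differed by 0.35 and 0.38 on the log2 scale. The log2 difference was 0.60 ± 0.17, a 1.52-fold ratio, with an interval from 0.22 to 0.99 (limma, adjusted p = 0.521). With wildtype replicate 1 left out, a single wildtype array remained. The spread then came from the deficient pair, moderated by limma toward the trend over all genes. The difference of Perp was 0.78 in that fit and passed the test. Under the other alternatives run, its adjusted p lay between 0.135 and 0.844.

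Sesn1 encodes sestrin 1, a stress protein that restrains the mTOR complex. Its signal was 1419 and 1296 on wildtype arrays and 1113 and 1209 on deficient arrays. Every deficient array lay below every wildtype array, and the log2 difference was -0.22 ± 0.11 (limma, adjusted p = 0.951). The other 3 Sesn1 probe sets past the filter gave values from -0.077 to 0.0083, nearer to 0 than the one used.

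Gtse1, which encodes a microtubule-binding protein that lowers p53 activity during the cell cycle, had signals of 889 and 680 in the wildtype and of 860 and 578 in the deficient arrays. In both genotypes replicate 1 was higher than replicate 2, and the log2 difference of -0.14 ± 0.20 was smaller than either gap between replicates. Trp53inp1, which encodes a stress protein that supports p53, had a mean signal of 3857 ± 748 (SD, n = 2) in the wildtype and of 4154 ± 390 in the deficient arrays. Phlda3, whose product blocks the kinase AKT at the membrane, had 1226 ± 82 and 1326 ± 222. Aen, an apoptosis-enhancing nuclease, had 1954 ± 248 and 2042 ± 104. The log2 differences of these and of Ei24, an endoplasmic reticulum protein, and Polk, a DNA polymerase that bypasses lesions, ran from 0.0097 to 0.12.

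**Figure D2:**
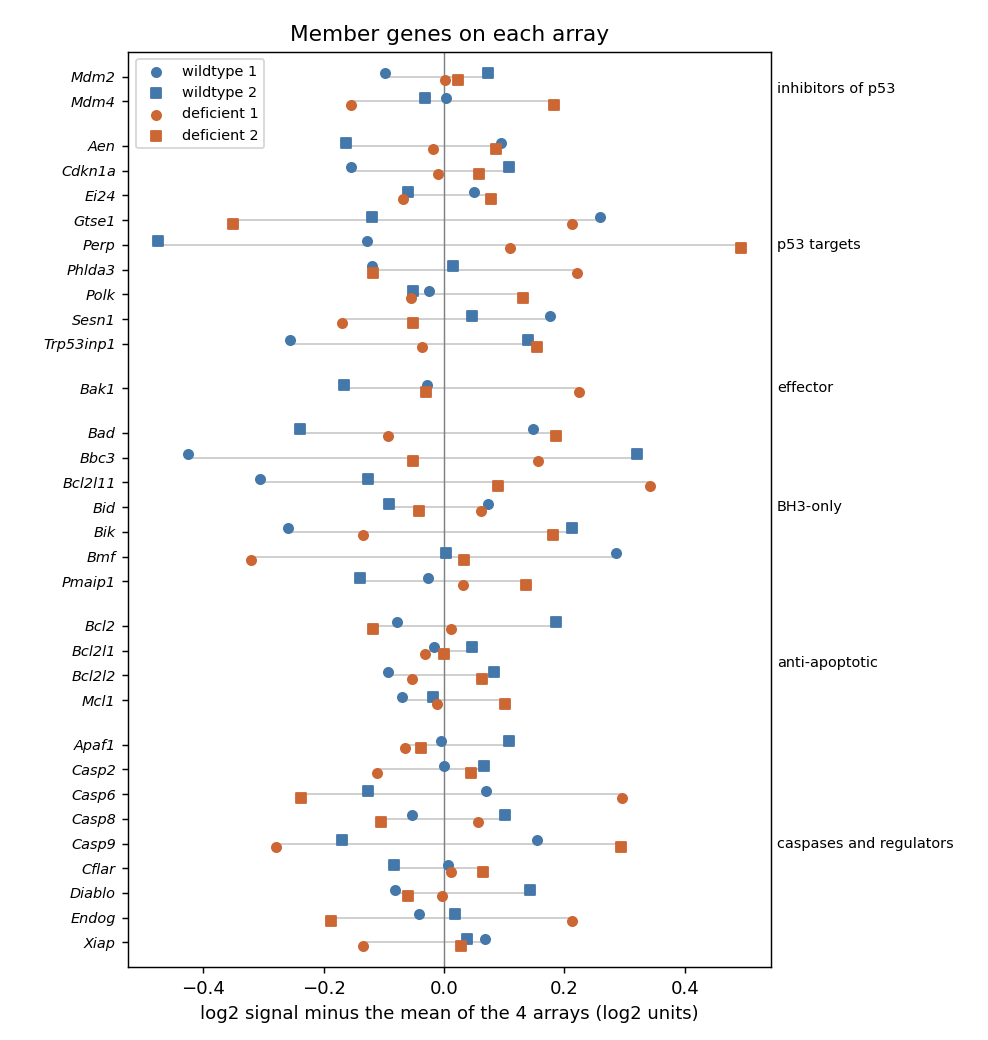
Log2 signal of each member on each of the 4 arrays, relative to the mean of the 4 (x axis, log2 units); blue marks wildtype, orange deficient, circles replicate 1 and squares replicate 2. In most rows the colours interleave, and Perp spans the widest range.

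Perp and Bcl2l11, the members with an unadjusted p below 0.05, stood beside several markers of other cells that were also higher in the deficient arrays. Over 9 B cell markers the summed signal was 4600 and 6761 on wildtype arrays and 13078 and 13451 on deficient arrays. Of the 8 tested, Ms4a1, Blnk and Cd22 passed the test. Most of the sum was Ighm, at 3502 and 5061 against 9064 and 8271. Among the B cell markers none was at 0. Pax5 lay below the filter and was lower in the deficient arrays, at 68.9 and 23.9 against 11.3 and 21.9. The 5 NK cell markers summed to 22769 and 28206 in the wildtype and 33769 and 31876 in the deficient arrays. Nearly all of that sum was Gzmb, which activated T cells also make. Eomes, at 218 and 342 against 396 and 662, and Klrk1, at 230 and 152 against 358 and 489, were also higher without overlap. No NK cell marker passed the test, and Klra8 and Ncr1 lay below the filter. The 8 dendritic cell markers summed to 1103 and 900 against 2466 and 3232, a gap carried by Ccl22 and Ly86, which passed the test; 4 of the 8 lay below the filter, and Cd209a, Itgax, Siglech, Xcr1 and Zbtb46 had lower means in the deficient arrays. The 6 macrophage and monocyte markers summed to 376 and 352 against a lower 318 and 316. The sums of the 2 CD8 T cell markers overlapped, at 757 and 815 against 723 and 977. Cd8b1, most of that sum, overlapped at 707 and 767 against 644 and 888. Cd8a did not, at 49.6 and 48.1 against a higher 79.4 and 88.9, and neither passed the test. The sums for the 6 T cell markers overlapped, at 42403 and 47770 against 44498 and 47209, with Cd4 present at 605 and 655 against 462 and 725. The 3' to 5' signal ratio of the transferrin receptor control, a sign of RNA quality, was 2.40 and 2.74 in the wildtype and 1.92 and 2.23 in the deficient arrays. For Gapdh it was 0.778 and 0.808 against 0.746 and 0.778, which nearly touch, and for beta-actin 1.17 and 1.30 against 1.14 and 1.25, which overlap. The part of these in the values of Perp and Bcl2l11 was not tested. In such bulk samples fewer cells of a type and less RNA per cell cannot be told apart.

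The effector measured here is Bak1, whose product permeabilises the outer mitochondrial membrane. It had signals of 614 and 557 in the wildtype arrays and of 735 and 613 in the deficient arrays. Wildtype replicate 1 and deficient replicate 2 were nearly equal, so the groups overlapped, and the log2 difference was 0.19 ± 0.14. It was 0.066 without deficient replicate 1 and 0.32 without deficient replicate 2.

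Among the 7 BH3-only genes, 6 estimates lay above 0 and 1 below, with a median of 0.093, and none passed the test. Bcl2l11 encodes BIM, the BH3-only protein best known for removing self-reactive and spent T cells. Its signal was 330 and 376 on wildtype arrays and 526 and 439 on deficient arrays. Both deficient arrays were above both wildtype arrays, with a log2 difference of 0.43 ± 0.16, a 1.35-fold ratio, and an interval from 0.069 to 0.80 (limma, adjusted p = 0.835). The gene had 4 other probe sets past the filter, which gave -0.24, -0.14, -0.022 and 0.075. With the mean of all its probe sets the difference was 0.020.

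Pmaip1 encodes NOXA, a p53 target that binds MCL1. Its signal was 1063 and 982 on wildtype arrays and 1107 and 1192 on deficient arrays, with no overlap. The log2 difference was 0.17 ± 0.11 (limma, adjusted p = 0.974). Bbc3, which encodes PUMA, the other main BH3-only target of p53, had 274 and 469 in the wildtype and 417 and 359 in the deficient arrays. Both deficient arrays lay between the wildtype arrays, which differed by 0.75 on the log2 scale, the widest gap between replicates of any member.

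Bmf, which encodes a BH3-only protein linked to the cytoskeleton, had the lowest estimate of all members. Its signal was 155 and 125 on wildtype arrays and 97 and 128 on deficient arrays, and the log2 difference was -0.29 ± 0.25. The groups overlapped, and the estimate was -0.15 without wildtype replicate 1, -0.11 without deficient replicate 1 and -0.47 without deficient replicate 2. Without deficient replicate 1 the lowest estimate was that of Gtse1, -0.42. Bid, which carries the signal of caspase-8 to the mitochondria, had a log2 difference of 0.020 ± 0.120. Bad, controlled by phosphorylation downstream of growth factors, had 0.093 ± 0.189, and Bik, a BH3-only protein of the endoplasmic reticulum, had 0.047 ± 0.256.

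The 4 anti-apoptotic genes measured had narrow intervals around 0, with log2 differences from -0.11 to 0.090. Mcl1, whose short-lived product T cells need at every stage, had signals of 8942 and 9267 in the wildtype arrays and of 9317 and 10073 in the deficient arrays. The groups did not overlap, but the nearest arrays differed by far less than the deficient pair did. The log2 difference was 0.090 ± 0.088, with an interval from -0.11 to 0.29. All 5 other Mcl1 probe sets were also above 0, from 0.067 to 0.21, and none passed the test when every probe set was tested.

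Bcl2, the survival factor of resting lymphocytes, had a mean signal of 4432 ± 574 (SD, n = 2) in the wildtype and of 4100 ± 262 in the deficient arrays, a log2 difference of -0.11 ± 0.11. Its other 4 probe sets past the filter ran from -0.37 to 0.021. Bcl2l1, which encodes BCL-XL, induced by CD28 signals, had 3087 ± 97 and 3022 ± 47. Bcl2l2, which encodes BCL-W, had 1038 and 1174 in the wildtype and 1067 and 1158 in the deficient arrays, with the deficient pair between the wildtype arrays.

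**Figure D3:**
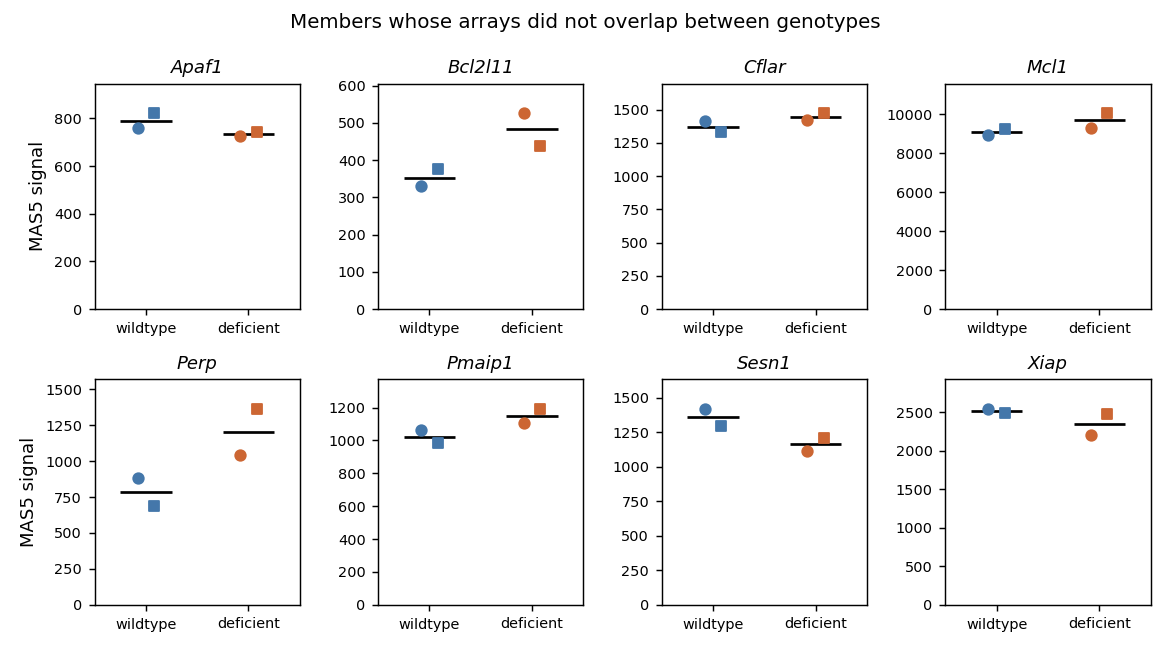
MAS5 signal (y axis from 0, linear) of the 8 members whose wildtype (blue) and deficient (orange) arrays did not overlap; circles are replicate 1, squares replicate 2 and bars the mean of 2 arrays. Apaf1, Sesn1 and Xiap are lower and the other 5 higher in the deficient arrays; none passed the test.

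Among the 9 caspases, apoptosome genes and regulators, 4 estimates lay above 0 and 5 below, between -0.11 and 0.077, and none passed the test. Apaf1, the scaffold of the apoptosome, had signals of 760 and 823 in the wildtype arrays and of 728 and 742 in the deficient arrays. The groups did not overlap, and the log2 difference was -0.10 ± 0.12. The other Apaf1 probe set gave 0.076. Casp9, the initiator caspase that APAF1 activates, had 175 and 137 in the wildtype and 126 and 195 in the deficient arrays, a spread that covered the wildtype pair.

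Casp8, the initiator caspase of death receptors, had signals of 4704 and 5241 in the wildtype arrays and of 5078 and 4539 in the deficient arrays. The groups overlapped, and the log2 difference was -0.048 ± 0.102, with an interval from -0.28 to 0.18. Cflar, the inhibitor of caspase-8 known as c-FLIP, had 1415 and 1329 in the wildtype and 1420 and 1474 in the deficient arrays. Its groups did not overlap, but the nearest arrays were almost equal, and its log2 difference was 0.077 ± 0.106. The other 3 Cflar probe sets past the filter ran from -0.52 to 0.13.

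Xiap, which encodes a direct inhibitor of caspases, had signals of 2547 and 2495 in the wildtype arrays and of 2210 and 2478 in the deficient arrays. Deficient replicate 2 was only just below the wildtype pair, and the log2 difference was -0.11 ± 0.10, which ran from -0.19 to -0.025 with 1 array left out. The other Xiap probe sets past the filter gave -0.79, -0.29, -0.15 and 0.11, the first from dim signals of 80.9 and 50.5 against 29.3 and 32.5. Diablo, whose product is released from mitochondria and blocks XIAP, had -0.062 ± 0.122. Its other probe set past the filter gave 0.73, from dim signals of 42.2 and 12.3 against 49.8 and 51.0. The mean of all Diablo probe sets was 0.33. Casp2, a caspase activated by the PIDDosome, had -0.066 ± 0.106. Casp6, an executioner caspase, and Endog, a mitochondrial nuclease, had deficient replicates that differed by 0.53 and 0.40 on the log2 scale, with replicate 1 higher, and log2 differences between genotypes of 0.057 ± 0.168 and 0.023 ± 0.147.

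Most members had more than 1 probe set. Of 80 member probe sets past the filter, 48 were not the one used, and 25 of these had the same sign as the one used. They ran from -0.82 to 0.73, and none of the 48 had an unadjusted p below 0.05. When all 27022 probe sets past the filter were tested, 45 passed and none of them belonged to a member.

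**Figure D4:**
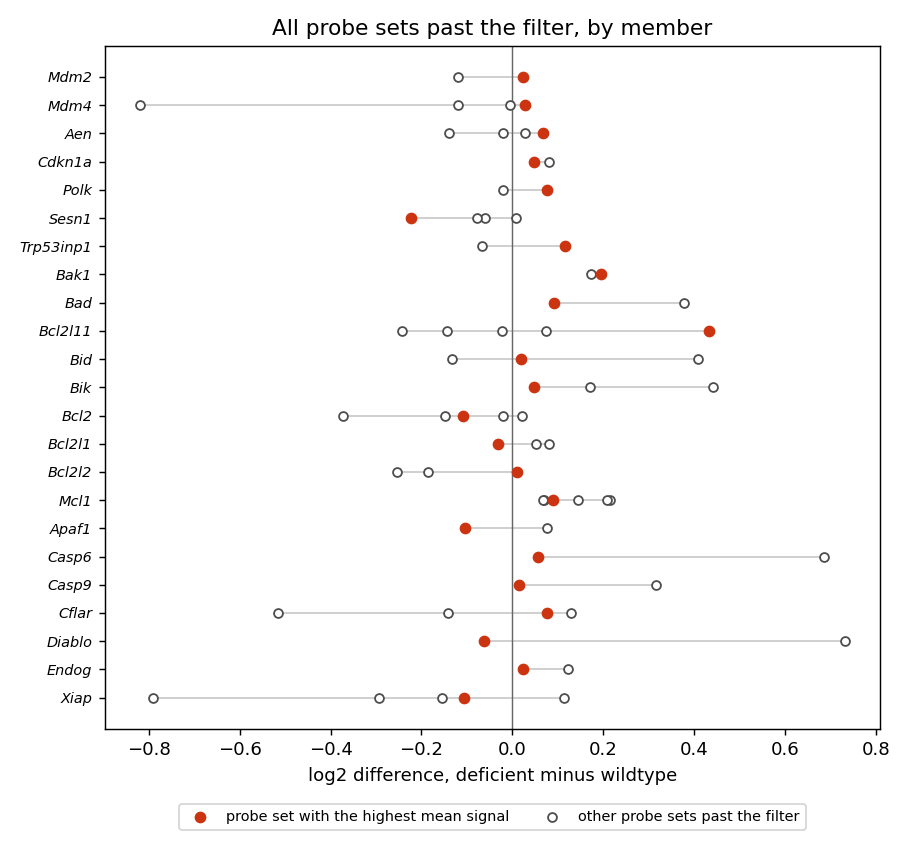
Log2 difference between the genotypes (x axis, log2 units) for every probe set past the filter of the 23 members with more than 1; red marks the probe set with the highest mean signal and open circles the others. Open circles fall on both sides of 0 for Bcl2l11, Bcl2, Cflar and Xiap, and above 0 for Mcl1.

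The median of their 32 log2 differences was 0.026, where that of all tested genes was -0.010. The median size of the difference, regardless of sign, was 0.076 for the members and 0.12 for all tested genes, whose median signal of 488 was lower than the members' 1268. Between single arrays of different genotypes the members differed by a median of 0.12 to 0.17, depending on the pair. Within a genotype the medians were 0.17 for the wildtype and 0.16 for the deficient pair, so arrays of different genotypes were about as far apart as replicates. Of the 32 estimates 22 lay above 0 and 10 below (68.8% above, where 47.5% of all tested genes lay above). The split was 26 and 6 with each array centred on its median, which moved the median of all tested genes to 0.073. It was 16 and 16 without wildtype replicate 1. The share of all tested genes above 0 was not counted under these alternatives.

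**Figure D5:**
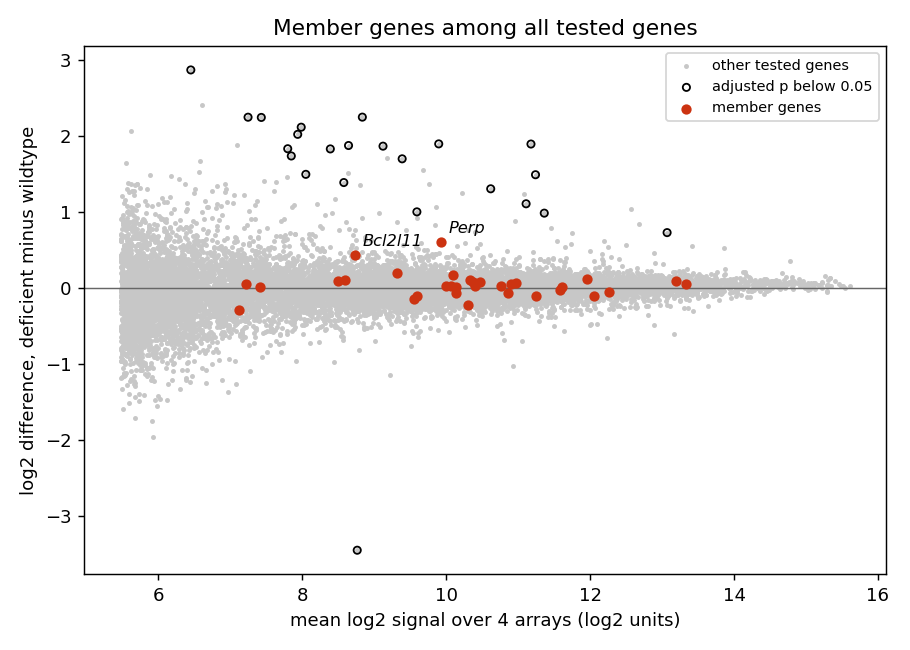
Log2 difference between the genotypes (y axis, log2 units) against mean log2 signal over 4 arrays (x axis, log2 units) for 12821 tested genes; red points are the 32 members and black rings the 23 genes with an adjusted p below 0.05. The members lie along 0, and none is ringed.

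Further genes of the same pathways, 93 in all, were taken from lists, and 80 were tested. None passed the test, and 5 had an unadjusted p below 0.05 (Ak1, Bok, Fas, Casp1 and Casp4), each of them higher in the deficient arrays. Bok was tested only through its deficient arrays, and without it 4 of 79 remain, which is 5.06% beside 5.26% of all tested genes. Among 26 further p53 targets the genes with the smallest p were Ak1, Tigar, Dcxr and Gadd45a, with log2 differences of 0.76, 0.28, 0.21 and -0.34. Tigar, a p53 target that lowers glycolysis, had 479 and 461 in the wildtype and 604 and 545 in the deficient arrays. Among 17 damage kinases and cofactors of p53, 5 estimates lay above 0 and 12 below, and the acetyltransferase gene Kat5, the deacetylase gene Sirt1, the DNA-dependent kinase gene Prkdc and the acetyltransferase gene Ep300 had -0.22, -0.17, -0.15 and 0.14.

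Bok, a BAX-like member of the BCL2 family, had the smallest unadjusted p of these genes. Its signal was 18.9 and 22.3 on wildtype arrays and 98.9 and 72.0 on deficient arrays. The wildtype values lay below the level of the filter, 29.9. The log2 difference was 1.49 ± 0.36 on the scale with a pseudocount, which understates dim genes (limma, adjusted p = 0.368). Bcl2l14, Bag4 and Tmbim6, the next among 12 tested relatives and partners of BCL2, had -0.42, 0.19 and 0.15.

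Fas, the death receptor through which activated T cells are removed and a p53 target, had signals of 898 and 847 in the wildtype arrays and of 1014 and 1341 in the deficient arrays. The groups did not overlap, and the log2 difference was 0.41 ± 0.15 (limma, adjusted p = 0.797). Ripk3, Daxx and Tnfsf10 followed among 10 death receptor genes, with -0.34, 0.21 and -0.36. Casp1 and Casp4, caspases of inflammation and pyroptosis, had 0.48 ± 0.15 and 0.41 ± 0.15, with adjusted p of 0.642 and 0.856 by limma. Casp8ap2 and Casp14 had 0.14 and -0.60. Htra2, Birc5, Birc2 and Cycs, from the list of caspase inhibitors and apoptosome partners, had 0.21, 0.15, 0.15 and -0.029, and Cycs encodes cytochrome c, which triggers APAF1.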

How the data were processed

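The authors' deposited table holds a linear MAS5 intensity for each probe set on every array, made with MAS5 and the Transcriptome Analysis Console per the submitters' processing notes, which give no versions. Each array has a 2% trimmed mean of 500, so the values were scaled per array. Detection calls and scan batches were not used here. Median signals of the arrays ran from 48.7 to 57.7. Across genes, log2 signals of replicates correlated at r = 0.986 and those of different genotypes at 0.984 to 0.985. Having 2 arrays a genotype limits the precision.

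Of 45101 probe sets 64 controls were left out. Of the rest, 34945 had 1 symbol in the platform annotation, 932 several and 9160 none. Among those with 1 symbol, 34741 probe sets had a gene ID that matched GRCm38.p6. Signals were taken as log2(signal + 14.7), the 25th percentile of all values, which understates differences of dim genes. Genes whose mean log2 reached the 40th percentile (a signal of 29.9) were tested two-sided in R 4.3.3 by limma 3.58.1 (eBayes using an intensity trend), at 8.60 moderated degrees of freedom and with Benjamini-Hochberg adjustment over 12821 genes; 23 passed. Groups came from the genotype in the labels. All members are named, with the signal of each array where groups did not overlap, an unadjusted p was below 0.05, or the gene was brightest or dimmest in its role group, and for some others chosen after their values were seen; of each further list, up to 4 with the smallest p are named. The members and lists were chosen with earlier results of these data known. Alternatives covered pseudocount, filter, scaling, probe sets, variance prior, replicate block and each array left out. The fit was tested on simulated data. Figures were drawn with matplotlib 3.10.9.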

Additional observations from a re-analysis of the deposited data

How the results depend on the processing

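By limma no member passed in 12 of the 13 alternatives, with 1 to 4 members at an unadjusted p below 0.05; without wildtype replicate 1 there was 1, Perp, so that leaving out replicates gave 0 to 1. The 23 genes passing over all genes became 2 without a filter, 51 with median centring, 14 with the mean of all probe sets, 45 when every probe set was tested, 0 without the intensity trend (769 with an unadjusted p below 0.05, limma), 14 with the replicate block, and 27 to 99 with an array left out (99 and 95 without wildtype replicate 1 and 2, 51 without deficient replicate 1). Replicate numbers are only shared numbers in the labels; deviations of same-numbered arrays correlated with r of 0.050 across genes, and the replicate block left 0 members called. The members' median difference was 0.11 with median centring, where that of all tested genes was 0.073, and 0.013 to 0.050 with an array left out. Some estimates near 0 turned sign, none of them past the threshold before or after. Median centring adds the same 0.083 to every gene, which by itself turned Bcl2l1 (0.053), Casp2 (0.017), Casp8 (0.035) and Diablo (0.021). Averaging weighs all probe sets of a gene equally, dim ones and those below the filter included. It turned Mdm4 (-0.23), Bcl2l2 (-0.13), Aen (-0.016), Cflar (-0.29) and Diablo (0.33). With an array left out, where the lone array is assumed to vary like the other genotype, 22 members turned sign at least once. Their ranges were, for inhibitors and targets of p53, Cdkn1a -0.083 to 0.18, Mdm2 -0.062 to 0.11, Mdm4 -0.14 to 0.20, Trp53inp1 -0.081 to 0.32, Phlda3 -0.066 to 0.27, Aen -0.061 to 0.20, Ei24 -0.063 to 0.083, Gtse1 -0.42 to 0.14 and Polk -0.017 to 0.17. For the BCL2 family they were Bbc3 -0.27 to 0.48, Bid -0.062 to 0.10, Bad -0.10 to 0.29, Bik -0.19 to 0.28, Bcl2 -0.24 to 0.025, Bcl2l1 -0.062 to 0.0015 and Bcl2l2 -0.078 to 0.098. For the caspases and their partners they were Casp2 -0.14 to 0.012, Casp6 -0.21 to 0.32, Casp8 -0.13 to 0.033, Casp9 -0.27 to 0.30, Diablo -0.17 to 0.050 and Endog -0.18 to 0.22. The other 10 kept their sign, with ranges of 0.41 to 0.80 for Perp, 0.31 to 0.56 for Bcl2l11, -0.29 to -0.16 for Sesn1, 0.066 to 0.32 for Bak1, 0.11 to 0.22 for Pmaip1, -0.47 to -0.11 for Bmf, 0.033 to 0.15 for Mcl1, -0.16 to -0.047 for Apaf1, 0.032 to 0.12 for Cflar and -0.19 to -0.025 for Xiap.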

Other observations

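The A1 genes, anti-apoptotic relatives of BCL2 that NF-kB induces in activated lymphocytes, are near-identical copies, and the annotation gives their probe sets to several of them at once. The only one of 3 such probe sets past the filter, shared by Bcl2a1a, Bcl2a1b and Bcl2a1d, had signals of 9907 and 10504 in the wildtype arrays and of 11606 and 11760 in the deficient arrays. The groups did not overlap. With every probe set tested by limma, its log2 difference of 0.20 did not pass (adjusted p = 0.912), and the values cannot be given to 1 gene.

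Members did not share a single high array. The highest of a member's 4 signals fell on wildtype replicate 1 for 6 members, on wildtype replicate 2 for 11, on deficient replicate 1 for 5 and on deficient replicate 2 for 10. Among all tested genes these shares were 26.2%, 27.3%, 24.6% and 21.9%.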
